A study of Mus musculus with 35 samples.

Results

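The transcripts of 10 genes of the bone morphogenetic protein (BMP) pathway were followed across Tet3 genotypes and vectors in mouse neuroectoderm (NE) cells. They are the ligands Bmp2, Bmp4 and Bmp7, the receptors Bmpr1a and Bmpr1b, the targets Id1, Id2 and Id3, the inhibitor Smad6 and the secreted antagonist Nog. They were chosen by symbol from the 3 deposited tables of normalized counts, in which all 10 are listed, of 18930 genes listed in at least 1 table. Of the 35 samples of the series, 26 are the RNA-seq samples used here, from 3 experiments: day 3 NE cells, a Dnmt1 experiment and a Tet3-CD experiment.

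All cells derive from V6.5, a male mouse embryonic stem cell (ESC) line of mixed 129/B6 background that was kept on feeder cells and pre-plated before use. The cells were differentiated to NE by withdrawing LIF and adding 1 uM retinoic acid, which every group shares, for 72 h according to the labels. TET3 is a dioxygenase that oxidizes 5-methylcytosine. Tet3m/m cells carry point mutations in the iron binding site that abolish this activity, and Tet3-/- cells carry an exon deletion that puts the transcript out of frame. Both were made by CRISPR/Cas9 editing and are compared with unedited Tet3+/+ cells. On day 3, 3 Tet3+/+, 3 Tet3m/m and 2 Tet3-/- samples without a vector were sequenced. The mutant samples are separate clones according to the study, so that clone and genotype are replicated together. In the Dnmt1 experiment, 2 samples of each genotype carried myc-tagged Dnmt1, the maintenance DNA methyltransferase, and 2 carried the empty vector. Both vectors have a CAG promoter, which drives expression in most cell types, and transfected cells were selected with blasticidin. In the Tet3-CD experiment, 1 sample of each genotype carried an HA-tagged wild-type TET3 catalytic domain and 1 carried the empty vector. In both vectors a 2A sequence precedes tdTomato. The transfection was on day 2, and the labels and the study's methods differ on when these cells were collected. Which clones were transfected, and whether samples of a group were separate cultures, is not given in the sources used here, so p-values in the Dnmt1 experiment measure the spread between samples that may be technical replicates.

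Recovered reads per sample lay between 31155842 and 50845950 over the 3 experiments. The Tet3 transcript was at 4576 to 5020 normalized counts in Tet3+/+ on day 3, at 1945 to 2666 in Tet3m/m and at 1796 to 2329 in Tet3-/-. In the empty-vector samples of the Dnmt1 experiment it was at 2957 and 3075, at 1125 and 963.7, and at 2520 and 2571 in the same order. Counts per gene show neither the point mutations nor the missing exon. The Dnmt1 vector took the Dnmt1 transcript from 14679 and 15225 to 22799 and 23768 in Tet3+/+, from 11934 and 11285 to 20245 and 23211 in Tet3m/m, and from 17356 and 17554 to 33380 and 39854 in Tet3-/-. NE markers (Sox1, Sox2, Pax6, Nes, Cdh2, Zic1, Sox3, Pou3f1) were all detected in every sample, with a summed level of 11899 to 35017. Markers of primitive endoderm, surface ectoderm and pluripotent cells were also detected in every experiment, and their levels stand beside the results that they move with.

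BMPs are secreted dimers that bring together type I and type II receptor kinases at the cell surface. The activated receptors phosphorylate Smad1, Smad5 and Smad9, which join Smad4 in the nucleus and turn on targets such as the Id genes. The same signal turns on Smad6, which blocks the receptors from inside the cell, while Noggin binds the ligands outside it. In the early ectoderm, BMP signalling favours surface ectoderm over neural fate, and in mouse ESCs it is known to support self-renewal together with LIF.

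TET3 and DNMT1 both act on cytosine, mainly in CpG dinucleotides. Promoters of some members that were lower together in Tet3m/m cells with the empty vector are therefore printed here, with each CpG in capitals. They are RefSeq sequences of GRCm38.p6, 5′ to 3′ in the direction of transcription, from 250 bases before to 50 bases after the start of the transcript. The table used holds a promoter for 6 of the 10 members: Bmp4, Bmpr1a, Bmpr1b, Id2, Id3 and Smad6. Of these, Bmpr1a and Bmpr1b were also lower in those cells and are not printed.
Bmp4, chr14:46390620-46390919, minus strand: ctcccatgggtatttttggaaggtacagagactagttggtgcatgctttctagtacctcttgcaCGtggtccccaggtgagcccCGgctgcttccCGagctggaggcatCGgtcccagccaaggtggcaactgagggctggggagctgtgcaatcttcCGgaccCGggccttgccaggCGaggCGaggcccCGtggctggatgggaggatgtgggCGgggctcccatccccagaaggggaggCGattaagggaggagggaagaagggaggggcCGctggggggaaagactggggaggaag
Id2, chr12:25096043-25096342, minus strand: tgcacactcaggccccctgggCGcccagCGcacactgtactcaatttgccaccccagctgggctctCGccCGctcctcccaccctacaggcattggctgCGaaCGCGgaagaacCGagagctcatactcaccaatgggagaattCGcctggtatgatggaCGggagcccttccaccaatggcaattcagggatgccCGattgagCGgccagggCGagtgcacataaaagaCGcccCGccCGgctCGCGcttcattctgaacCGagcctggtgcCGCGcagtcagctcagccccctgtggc
Id3, chr4:136143572-136143871, plus strand: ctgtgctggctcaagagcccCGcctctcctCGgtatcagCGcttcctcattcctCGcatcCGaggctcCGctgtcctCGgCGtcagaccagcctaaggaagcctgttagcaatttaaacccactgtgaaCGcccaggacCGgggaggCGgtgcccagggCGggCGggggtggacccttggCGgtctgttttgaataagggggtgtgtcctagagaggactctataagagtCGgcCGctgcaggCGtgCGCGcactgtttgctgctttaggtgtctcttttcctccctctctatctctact
Smad6, chr9:64022010-64022309, minus strand: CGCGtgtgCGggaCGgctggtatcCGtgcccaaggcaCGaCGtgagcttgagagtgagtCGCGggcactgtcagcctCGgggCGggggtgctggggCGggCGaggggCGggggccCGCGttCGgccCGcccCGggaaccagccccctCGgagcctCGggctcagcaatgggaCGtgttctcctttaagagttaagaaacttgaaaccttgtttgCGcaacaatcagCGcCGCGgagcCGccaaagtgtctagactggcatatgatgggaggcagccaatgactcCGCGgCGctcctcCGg

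The Bmp4 promoter window holds 12 CpGs, with an observed to expected ratio of 0.42. The windows of Id2, Id3 and Smad6 hold 21, 19 and 31, with ratios of 0.71, 0.70 and 0.95. Bmpr1a has 48 CpGs in its window (ratio 1.02), whereas the 3 windows listed for Bmpr1b have 5 or 6. Over all 32851 promoters of the table the median was 7 CpGs and a ratio of 0.38, and 43.5% held 10 or more. Of motifs known from BMP-responsive genes, GGCGCC, read on both strands, begins 231 bases before the start of Id2 and 198 bases before that of Bmpr1a, and it is found in 11.9% of all promoter windows. The short Smad motif CAGAC or its reverse complement lies 167 and 68 bases before the start of Id3 and in 2 of the Bmpr1b windows, and in 49.6% of all windows. Neither was found in the windows of Bmp4 and Smad6. The motifs do not overlap each other, a match is a string of letters and not a site shown to be bound, and DNA methylation at these windows was not analysed here.

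The members span a wide range of levels. Per kilobase of exon, in normalized counts, Id3 was highest in day 3 Tet3+/+ cells at a mean of 5567 (5270 to 5836, n = 3), ahead of Id1 at 3669, Id2 at 2180 and Bmpr1a at 1555. Bmp7 at 942 (865 to 1009) and Smad6 at 841 (794 to 897) overlapped each other. Then came Bmp4 at 652, Nog at 226 (171 to 258), Bmp2 at 114 and Bmpr1b at 96.7 (92.6 to 99.6), with no overlap between neighbours. Thus the Id genes, the direct readout of the pathway in textbook accounts, were the most abundant members and Bmpr1b the least. With the empty vector of the Dnmt1 experiment, Tet3+/+ cells had the same Id genes on top, with Id1 at 5400 above Id3 at 4515, and Bmpr1b again lowest at 32.5 (n = 2, no overlap between neighbours). Exon lengths were unions of GENCODE exons by gene name. The tables were normalized separately, so the order is compared within a table only. Centred on the mean of each experiment, log2 levels over the 20 day 3 and Dnmt1 samples varied most for Bmp4 (SD 0.874), Nog (0.865) and Bmpr1b (0.798), and least for Bmpr1a (0.158).

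The day 3 comparison asks how the catalytic mutation and the exon deletion of Tet3 change NE cells. The Tet3 transcript was lower in Tet3m/m too, overlapping with Tet3-/-. The study states that the mutant protein is possibly reduced as well, so Tet3m/m may not differ from Tet3+/+ in catalytic activity alone. In Tet3m/m, 3 of the 10 members passed the test, against 10.2% of all 17915 genes tested: Bmp4 and Bmpr1b fell and Bmp2 rose. In Tet3-/-, no member passed, against 0.642% of all genes. The test was limma on log2 of the normalized count plus 1, and a gene was called at an adjusted p under 0.05 and a fold above 1.5. The study used DESeq2 with these thresholds and reports more genes than limma called here, above all in Tet3-/-. The median log2 change of the members was -0.28 in Tet3m/m and -0.33 in Tet3-/-, where that of all genes was 0.00081 and -0.014. Both mutants share the Tet3+/+ samples, so their values are given side by side.

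**Figure D1:**
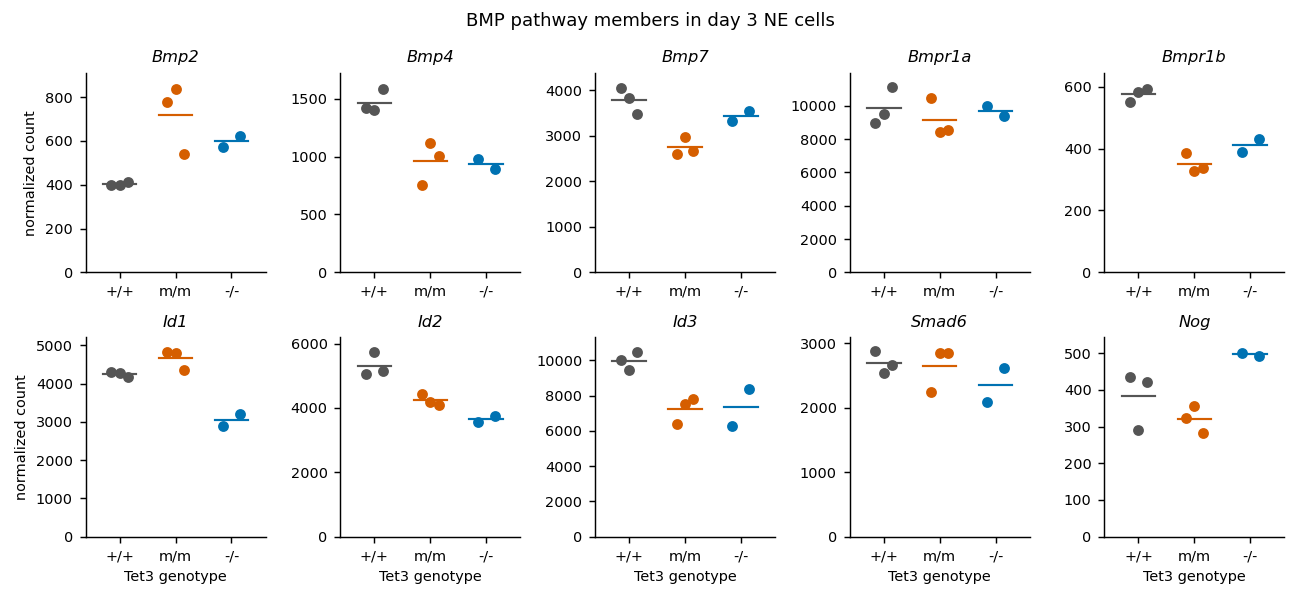
Normalized counts of the 10 members in day 3 NE cells, with a panel for each gene, a point for each sample and a line at the mean of each Tet3 genotype (+/+ n = 3, m/m n = 3, -/- n = 2). Bmpr1b was between 552.2 and 594.0 in Tet3+/+ and at most 432.6 in any mutant sample, whereas Bmpr1a overlapped between all genotypes.

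Among the ligands, Bmp4 was at 1419, 1399 and 1580 normalized counts in Tet3+/+, at 749.8, 1119 and 1004 in Tet3m/m and at 975.6 and 889.2 in Tet3-/-. All mutant samples lay below all Tet3+/+ samples. The log2 change was -0.63 (SE 0.147, limma adjusted p = 0.0173) in Tet3m/m, and in Tet3-/- it was -0.65 (SE 0.164, limma adjusted p = 0.0726). The call in Tet3m/m rested on single libraries: without Tet3+/+ replicate 1 or 3 the adjusted p was 0.0518 or 0.0768, and without Tet3m/m replicate 1 the log2 change was -0.47, under 1.5-fold. Without Tet3m/m replicate 1, or with DESeq2, Bmp4 was called in Tet3-/- (adjusted p = 0.0176 and 0.0084). Bmp4 lies on chromosome 14, whose 568 matched genes had a median log2 change of -0.10 in Tet3m/m and -0.13 in Tet3-/-, and the part of this shift in the result was not tested.

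Bmp2, the closest relative of Bmp4, went the other way. It was at 398.0, 400.7 and 413.1 in Tet3+/+, at 776.4, 835.5 and 538.7 in Tet3m/m and at 573.7 and 621.6 in Tet3-/-. Every mutant sample was above every Tet3+/+ sample, and the 3 Tet3m/m samples differed more among themselves than the Tet3+/+ samples did. The log2 change was 0.80 (SE 0.168, limma adjusted p = 0.0108) in Tet3m/m, and in Tet3-/- it was 0.56 (SE 0.188, limma adjusted p = 0.136). Bmp7, which can form dimers with either of these ligands, was at 4054, 3831 and 3478 in Tet3+/+ and at 2599, 2984 and 2659 in Tet3m/m, without overlap, and at 3335 and 3543 in Tet3-/-. Its log2 change in Tet3m/m was -0.46 (SE 0.0953, limma adjusted p = 0.00993), under the fold threshold, and -0.14 (SE 0.107, adjusted p = 0.501) in Tet3-/-.

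The type I receptors differed from each other. Bmpr1b, which is more restricted in embryonic tissues than Bmpr1a, was at 552.2, 583.7 and 594.0 in Tet3+/+, at 385.1, 327.1 and 338.1 in Tet3m/m and at 388.1 and 432.6 in Tet3-/-. Its log2 change was -0.72 (SE 0.136, limma adjusted p = 0.00673) in Tet3m/m and -0.49 (SE 0.152, adjusted p = 0.114) in Tet3-/-, again with every mutant sample below every Tet3+/+ sample. Bmpr1a, the widely used receptor, overlapped between the genotypes at 8428 to 11150, and the 95% interval of its log2 change was -0.36 to 0.14 in Tet3m/m and -0.30 to 0.26 in Tet3-/-.

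The Id genes encode helix-loop-helix proteins that cannot bind DNA and hold back differentiation factors of the same family. Id3 was at 10022, 9439 and 10452 in Tet3+/+, at 6391, 7526 and 7810 in Tet3m/m and at 6281 and 8384 in Tet3-/-. Id2 was at 5057, 5736 and 5153, at 4446, 4171 and 4099, and at 3551 and 3738 in the same order. For both genes, all mutant samples were below all Tet3+/+ samples, by less than 1.5-fold. The log2 changes of Id3 were -0.47 (limma adjusted p = 0.027) and -0.46 (0.1), and those of Id2 were -0.33 (limma adjusted p = 0.0299) and -0.54 (0.0471), each for Tet3m/m and Tet3-/-. Id1 separated the mutants. It was at 4311, 4279 and 4179 in Tet3+/+, at 4816, 4805 and 4356 in Tet3m/m and at 2885 and 3217 in Tet3-/-. Tet3-/- samples were thus below both other genotypes and Tet3m/m samples above Tet3+/+, with log2 changes of 0.13 (SE 0.0855, limma adjusted p = 0.359) and -0.48 (SE 0.0956, limma adjusted p = 0.0505) from Tet3+/+.

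The inhibitors showed no call against Tet3+/+. Smad6 overlapped between the genotypes at 2090 to 2876, with log2 changes of -0.03 and -0.21. Nog, whose product keeps BMPs from their receptors, was at 436.6, 289.5 and 422.0 in Tet3+/+, at 324.7, 354.9 and 283.1 in Tet3m/m and at 501.6 and 493.0 in Tet3-/-. The Tet3-/- samples were the highest of the 8, by a log2 change of 0.40 (SE 0.206, limma adjusted p = 0.304) from Tet3+/+. In the direct test of Tet3-/- against Tet3m/m, 1 member of 10 was called, where 9.73% of all genes were. It was Id1, at -0.61 (SE 0.0956, limma adjusted p = 0.00332), and without Tet3-/- replicate 1 its change was -0.53, under 1.5-fold. Nog differed by 0.64 (SE 0.206) with an adjusted p of 0.0698 by limma, and of 0.0274 with DESeq2. For the count of 0 in Tet3-/- against Tet3+/+, 6 members had an unadjusted p under 0.05, edgeR also called 0 and DESeq2 called 1, Bmp4. The DESeq2 adjusted p was also under 0.05, below the fold threshold, for Bmpr1b (0.0348), Id1 (0.000889), Id2 (0.00015) and Id3 (0.0446).

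Marker lists moved with the genotypes on day 3. In Tet3m/m, primitive endoderm markers summed to 20128 to 36386, against 13657 to 18308 in Tet3+/+, with 3 of 8 above without overlap and 1 below. Surface ectoderm markers in Tet3m/m summed to 44017 to 96197, overlapping with Tet3+/+, but Tfap2a, Grhl2, Dlx3 and Wnt6, 4 of the 7 in the table, were below without overlap and none was above. In Tet3-/-, primitive endoderm markers summed to 11603 to 14212, with 6 of 8 below and 1 above, and fibroblast markers (collagens, Thy1, Postn and others), which would show remaining feeders but are also made by other cells, summed to 42441 to 47322, against 17102 to 27874, with 4 of 8 above. Surface ectoderm markers in Tet3-/- summed to 120661 to 139294, against 60638 to 85824, with 2 of the 7 in the table above and 2 below. NE markers moved both ways in Tet3-/-, with Nes and Cdh2 above and Sox1, Sox2, Pax6, Zic1 and Sox3 below, and Pax6, Zic1 and Sox3 were also below in Tet3m/m. None of these markers was at 0 in any day 3 sample, and their part in the BMP results was not tested. In bulk samples, fewer cells of a type and less RNA per cell cannot be told apart.

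Of 66 other BMP pathway genes listed by role, 61 were tested on day 3. In Tet3m/m, 2 were higher and 11 lower, where 5.06% of all genes were higher and 5.19% lower. Targets made up 6 of the 11, of 14 listed, with a median log2 change of -0.58 against 0.00081 for all genes. Tfap2a, a transcription factor of non-neural ectoderm, fell from a range of 327–548 normalized counts in Tet3+/+ to 83.0–158 (log2 change -1.92, limma adjusted p = 0.00125). Hey1, a repressor that both Notch and BMP induce, fell from 316–437 to 153–174 (-1.23, limma adjusted p = 0.00169). Atoh8, a helix-loop-helix factor, fell from 632–754 to 260–332 (-1.22, limma adjusted p = 0.000594), and lies on chromosome 6, whose genes had a median of -0.22. Of the ligands, Gdf10 (-2.28), Gdf6 (-0.89) and Gdf11 (-0.64) fell. The receptors had 1 call, Eng, a co-receptor, which rose by 1.03. Of the secreted antagonists, Sostdc1 (-2.94) and Chrdl2 (-2.54) fell and Fst, which binds activins and some BMPs, rose from 523–683 to 1238–1755 (1.27, limma adjusted p = 0.000618). Both antagonists that fell were at low levels, at most 118 in any day 3 sample.

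In Tet3-/-, 3 of the 61 were higher and 1 lower, where 0.642% of all genes were called. Msx1, a homeobox target, fell from 2576–3172 in Tet3+/+ to 1078–1422 (log2 change -1.21, limma adjusted p = 0.0464). Crim1, a membrane protein that binds BMPs, rose by 1.05 (limma adjusted p = 0.0493), and so did Skil, a corepressor of Smads, by 0.67 (limma adjusted p = 0.0471). The third was Fstl1, a follistatin-like protein, which rose by 0.99 (limma adjusted p = 0.0274) and was named after its values were seen. Between the mutants, 8 were higher in Tet3-/- and 1 lower, against 9.73% of all genes called, among them Gdf6 (1.39), Smad1 (0.75) and, lower, Fst (-0.90). Smad1, which carries the signal, lies on chromosome 8, whose genes differed by a median of 0.27 in this comparison and by -0.34 in Tet3m/m against Tet3+/+.

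The empty-vector samples of the Dnmt1 experiment allow the same genotype comparisons in transfected and selected cells. Here 8 of the 10 members fell in Tet3m/m, against 21.2% of all 18055 genes tested, 10.9% of which were lower. In Tet3-/-, 2 of the 10 rose, Bmp7 and Bmpr1b, a share near the 24.9% of all genes called, where 11% were higher. Between the mutants, 8 members were higher in Tet3-/-, against 39.6% of all genes called, where 18.9% were higher. The median log2 change of the members was -1.19 in Tet3m/m, 0.19 in Tet3-/- and 1.27 between the mutants, with medians of all genes between -0.014 and 0.0068. These 3 comparisons share samples with each other, and those of the Dnmt1 vector share them too.

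**Figure D2:**
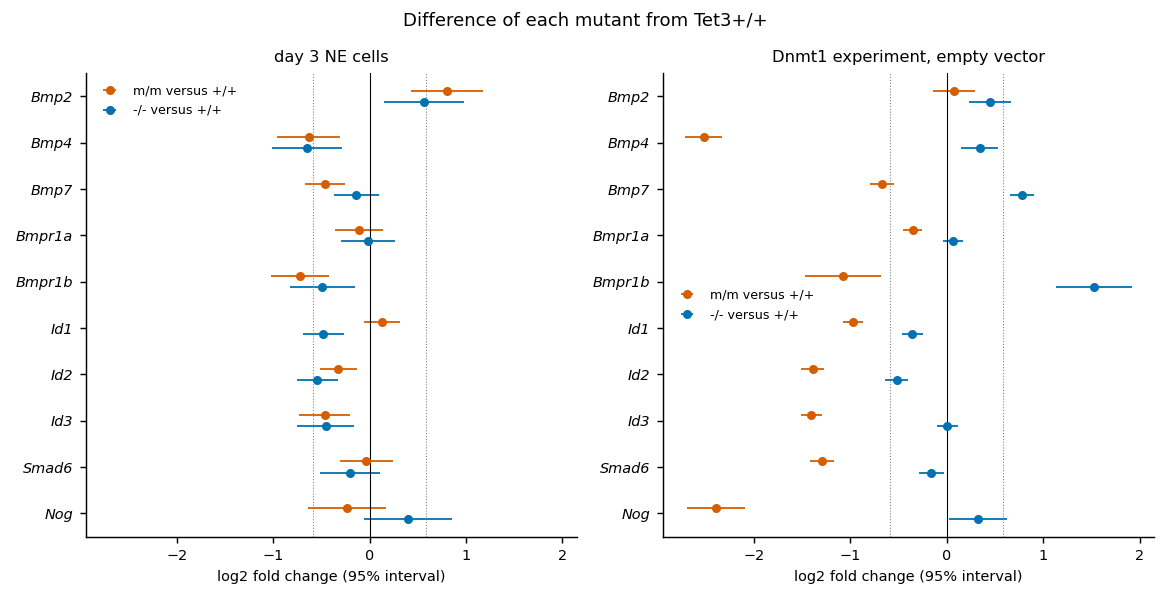
Log2 fold change of each member in Tet3m/m and Tet3-/- from Tet3+/+, on day 3 (left) and with the empty vector of the Dnmt1 experiment (right); points are limma estimates, bars their 95% intervals and dotted lines mark 1.5-fold. With the empty vector, Bmp4 and Nog were at -2.52 and -2.39 in Tet3m/m, below every day 3 value.

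Bmp4 and Nog had the lowest estimates in Tet3m/m, and their intervals overlapped. Bmp4 was at 1416 and 1524 normalized counts in Tet3+/+, at 272.3 and 238.3 in Tet3m/m and at 1750 and 1975 in Tet3-/-. The fall in Tet3m/m was 5.75-fold (log2 change -2.52, SE 0.0919, limma adjusted p = 2.52e-15), whereas Tet3-/- was higher by 0.34 (limma adjusted p = 0.00371), under 1.5-fold. The genes of chromosome 14 had a median of -0.0048 in Tet3m/m here. Bmp7 was at 2060 and 1996 in Tet3+/+, at 1288 and 1252 in Tet3m/m and at 3483 and 3469 in Tet3-/-, so that it fell in one mutant (-0.68, SE 0.0592, limma adjusted p = 4.51e-09) and rose in the other (0.78, SE 0.0592, limma adjusted p = 5.59e-10). Bmp2 was at 533.4 and 621.5, at 558.4 and 659.0, and at 799.0 and 770.2. It overlapped between Tet3+/+ and Tet3m/m, and was higher in Tet3-/- by 0.45 (limma adjusted p = 0.0013), under 1.5-fold.

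Bmpr1b, at 195.6 and 192.5 in Tet3+/+, was at 78.6 and 106.8 in Tet3m/m and at 522.1 and 602.0 in Tet3-/-. This receptor fell by 1.07 (SE 0.19, limma adjusted p = 7.43e-05) in Tet3m/m and rose by 1.53 (SE 0.19, limma adjusted p = 7.78e-07), or 2.88-fold, in Tet3-/-. Bmpr1a was lower in Tet3m/m, at 6743 and 6391 against 8613 and 8173, by a log2 change of -0.35 (limma adjusted p = 2.81e-06) that is 1.28-fold. It overlapped with Tet3+/+ in Tet3-/-.

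All 3 Id genes fell in Tet3m/m. Id3 went from 8031 and 8141 to 2884 and 3226 (log2 change -1.41, SE 0.0531, limma adjusted p = 4.35e-15). Id2 went from 5980 and 5794 to 2172 and 2317 (-1.39, SE 0.0574, limma adjusted p = 1.8e-14), and Id1 from 6273 and 6256 to 3137 and 3223 (-0.98, SE 0.0502, limma adjusted p = 7.35e-13). In Tet3-/-, Id3 overlapped with Tet3+/+ at 8356 and 7894, while Id2, at 3955 and 4263, and Id1, at 4890 and 4893, were lower by less than 1.5-fold (-0.52 and -0.36, limma adjusted p = 1.49e-07 and 4.09e-06). The negative regulators fell in Tet3m/m as well. Smad6 went from 3092 and 2846 to 1224 and 1192 (-1.30, SE 0.0612, limma adjusted p = 1.77e-13), and Nog from 675.7 and 541.5 to 97.79 and 134.1 (-2.39, SE 0.144, limma adjusted p = 1.11e-11), a 5.24-fold fall. In Tet3-/-, Smad6 was at 2671 and 2639 and Nog at 781.1 and 735.3. Members of every role, from ligand to target and antagonist, were thus lower in Tet3m/m with the empty vector. The counts of 8, 2 and 8 calls were the same without any single library and with edgeR or DESeq2. Recovered reads of 2 samples of a group differed with a chi-square per degree of freedom of 3.961 to 4.472 here. On day 3 it was 13.84 to 87.18. Fits without a library cannot show how clones or cultures vary, since the 2 samples of a group may be technical replicates.

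The marker lists moved strongly in the same samples. In Tet3m/m with the empty vector, primitive endoderm markers summed to 173498 to 195272, against 56389 to 60685 in Tet3+/+, with 8 of 8 higher without overlap. Pluripotent cell markers summed to 63676 to 65420, against 22890 to 23400, with 7 of 8 higher and Dppa3 lower. Surface ectoderm markers were at 16660 to 18944, against 46949 to 47277, with 7 of 8 lower. Fibroblast markers were at 2900 to 3145, against 17750 to 19497, with 6 of 8 lower and Thy1 and Lum higher. In Tet3-/- the sums moved the other way. Primitive endoderm markers were at 16227 to 16769, with 6 of 8 lower and Gata6 and Foxa2 higher. Pluripotent cell markers were at 6308 to 6674, with 8 of 8 lower. Surface ectoderm markers were at 104689 to 107847, with 5 of 8 higher and Krt5 lower. Fibroblast markers were at 36357 to 36375, with 5 of 8 higher and Thy1 and Dcn lower. The sum of the NE markers differed least, at 18757 to 19152, 19006 to 19348 and 22065 to 22523 over the genotypes, although 5 of 8 were lower and 3 higher in Tet3m/m. No marker was at 0 in both samples of a group, but Twist2 and Elf5 were at 0 in 1 of the 2 Tet3m/m samples and Krt5 in 1 of the 2 Tet3-/- samples. Tfap2a is both a surface ectoderm marker and a listed BMP target, and the part of these shifts in the BMP results was not tested.

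Day 3 and empty-vector values stand side by side only, since the tables were normalized separately. In both experiments, Tet3m/m was lower than Tet3+/+, without overlap, for Bmp4, Bmp7, Bmpr1b, Id2 and Id3. Id1 in Tet3m/m was above Tet3+/+ on day 3 and below it with the empty vector. Bmp4 and Bmpr1b in Tet3-/- were below Tet3+/+ on day 3 and above it with the empty vector, while Bmp2 was above and Id1 and Id2 were below in both. In the Tet3-CD experiment, with 1 empty-vector library per genotype, Tet3m/m was not lower than Tet3+/+ for Bmp7 (1358 against 1225) and Id3 (6874 against 6425). It was lower there for Bmp4, Bmpr1b and Id2. Whether these changes differ between the experiments was not tested.

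The other pathway genes were spread over both directions with the empty vector: 11 of 61 were higher and 17 lower in Tet3m/m, and 13 higher and 10 lower in Tet3-/-. Of all genes, 10.3% were higher and 10.9% lower in Tet3m/m, and 11.0% and 13.9% in Tet3-/-, so that the share of pathway genes lower in Tet3-/- was near that of all genes. Of the 14 targets, 8 fell and 2 rose in Tet3m/m, with a median log2 change of -1.15. Msx1 fell from 2287–2385 normalized counts to 470 in both Tet3m/m samples (-2.31, limma adjusted p = 3.85e-17), and Atoh8 from 305–342 to 25.6–28.7 (-3.53, limma adjusted p = 1.44e-12). Tfap2a (-1.28) and Hey1 (-1.32) also fell. Of the ligands, Gdf11 went from 874–888 to 302–354 in Tet3m/m (-1.43) and to 1730–1733 in Tet3-/- (0.97), and Gdf6 from 137–140 to 52.1–61.2 (-1.28) and to 342–380 (1.37). In these ligands, as in Bmp7, the mutants lay on opposite sides of Tet3+/+. Fst fell in both, with log2 changes of -0.75 and -1.05, whereas it was higher in Tet3m/m on day 3.

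The Dnmt1 vector tests what more of the methyltransferase does in each genotype. In Tet3+/+, no member passed the test, against 1.17% of all genes. In Tet3m/m, Bmp4 and Nog rose, 2 of 10 against 2.46% of all genes, and in Tet3-/-, Bmp4 and Bmpr1b fell, 2 of 10 against 3.53%. Medians over the members were -0.07, 0.14 and -0.12, and those over all genes between -0.0015 and 0.0097. For the count of 0 in Tet3+/+, 2 members, Id1 and Id3, had an unadjusted p under 0.05, and edgeR and DESeq2 called 0 each.

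**Figure D3:**
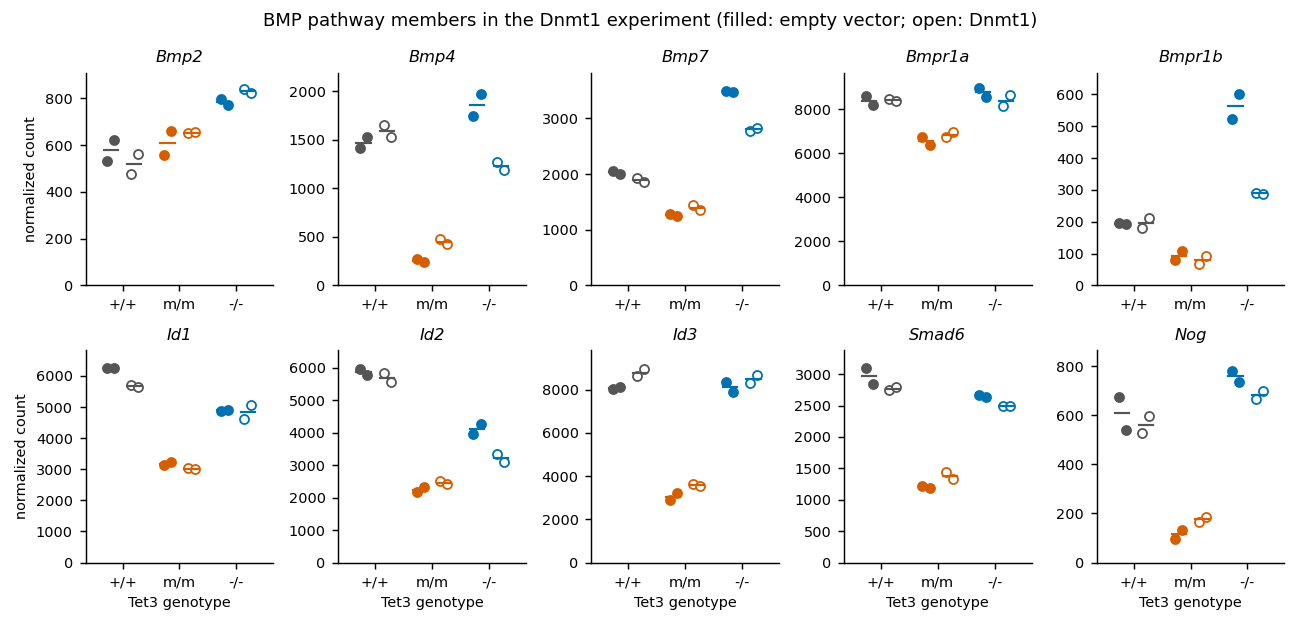
Normalized counts of the members in the Dnmt1 experiment, with a panel for each gene; filled points are samples with the empty vector, open points samples with Dnmt1, and lines are means of 2 samples of a genotype and vector. Bmp4 with Dnmt1 moved up in Tet3m/m, to 475.6 and 427.1, and down in Tet3-/-, to 1270 and 1188.

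Bmp4 moved in opposite directions in the mutants. With Dnmt1 it was at 1648 and 1528 normalized counts in Tet3+/+, against 1416 and 1524 with the empty vector. In Tet3m/m it went from 272.3 and 238.3 to 475.6 and 427.1, a log2 change of 0.82 (SE 0.0919, limma adjusted p = 2.96e-06). The Dnmt1 samples of Tet3m/m were still below all Tet3+/+ samples. In Tet3-/- it went from 1750 and 1975 to 1270 and 1188 (-0.60, SE 0.0919, limma adjusted p = 0.000148), below all Tet3+/+ samples. Without empty-vector Tet3-/- replicate 2 or Dnmt1 Tet3-/- replicate 2, the change was -0.51 or -0.55, under 1.5-fold.

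The change of Bmp4 in Tet3m/m exceeded that in Tet3+/+ by 0.71 (SE 0.13, limma adjusted p = 0.00525), and it was the only member of the 10 called for this difference by limma, where 1.31% of all genes were. In Tet3-/- it was below that in Tet3+/+ by a difference of -0.71 (SE 0.13, limma adjusted p = 0.00127). A direct test of Tet3-/- against Tet3m/m, added after the data had been seen, gave -1.42 (SE 0.13, limma adjusted p = 1.82e-07). A difference of changes was called at an adjusted p under 0.05 without a fold threshold. The genotype effects and the vector effects share the empty-vector samples. With the vector, the Dnmt1 transcript was higher in Tet3-/- than in the other genotypes, and the part of this in the differences was not tested.

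Nog, the antagonist, followed Bmp4 upward in Tet3m/m. It went from 97.79 and 134.1 to 165.4 and 187.1 (log2 change 0.61, SE 0.144, limma adjusted p = 0.00789). The call was lost without empty-vector Tet3m/m replicate 1 (0.39, adjusted p = 0.156), without Dnmt1 Tet3m/m replicate 2 (0.53, 0.0929) and with only the 2 compared groups in the fit (0.61, 0.0968). In Tet3+/+ it was at 529.1 and 595.3 with Dnmt1 and in Tet3-/- at 666.5 and 699.7, with changes of -0.11 and -0.15. Its change in Tet3m/m exceeded that in Tet3+/+ by 0.72 (SE 0.204), with an adjusted p of 0.0994 by limma and 0.0382 by DESeq2, and the added test of Tet3-/- against Tet3m/m gave -0.76 (SE 0.204, limma adjusted p = 0.015).

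Bmpr1b went from 522.1 and 602.0 to 291.1 and 286.8 with Dnmt1 in Tet3-/-, where this receptor had been high with the empty vector. The log2 change was -0.95 (SE 0.19, limma adjusted p = 0.00171), and the Dnmt1 samples were still above those of Tet3+/+, at 178.9 and 211.5. It differed from the change in Tet3+/+ by -0.96 (SE 0.268, limma adjusted p = 0.0265), a call lost in 5 of the 12 fits without a library, with adjusted p from 0.0635 to 0.123. In Tet3m/m it was at 66.15 and 91.83, overlapping with the empty vector. In all, 3 of 10 members were called for the difference between Tet3-/- and Tet3+/+, where 9.71% of all genes were. The third was Id2, at -0.30 (SE 0.0812, limma adjusted p = 0.0205), a call lost without any of 4 libraries, with adjusted p from 0.076 to 0.123.

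Id2 itself went from 3955 and 4263 to 3348 and 3098 in Tet3-/- (log2 change -0.35, limma adjusted p = 0.00029), under 1.5-fold, and from 2172 and 2317 to 2520 and 2416 in Tet3m/m (0.14, 0.145). Bmp7 moved likewise, from 3483 and 3469 to 2780 and 2824 in Tet3-/- (-0.31, limma adjusted p = 0.00118) and from 1288 and 1252 to 1449 and 1347 in Tet3m/m (0.14, 0.157). In the added test of Tet3-/- against Tet3m/m, 5 of 10 members were called, where 14.2% of all genes were. Beside Bmp4 and Nog these were Id2 at -0.49 (SE 0.0812, limma adjusted p = 0.000298), Bmp7 at -0.45 (SE 0.0838, limma adjusted p = 0.000912) and Smad6 at -0.29 (SE 0.0865, limma adjusted p = 0.0309). The call of Smad6 was lost in 6 of 12 fits without a library and that of Nog in 3. The other 6 members had 95% intervals that include 0 in Tet3-/-, and Id3 was higher by 0.24 (limma adjusted p = 0.00476) in Tet3m/m, at 3650 and 3560 against 2884 and 3226, which is under 1.5-fold.

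**Figure D4:**
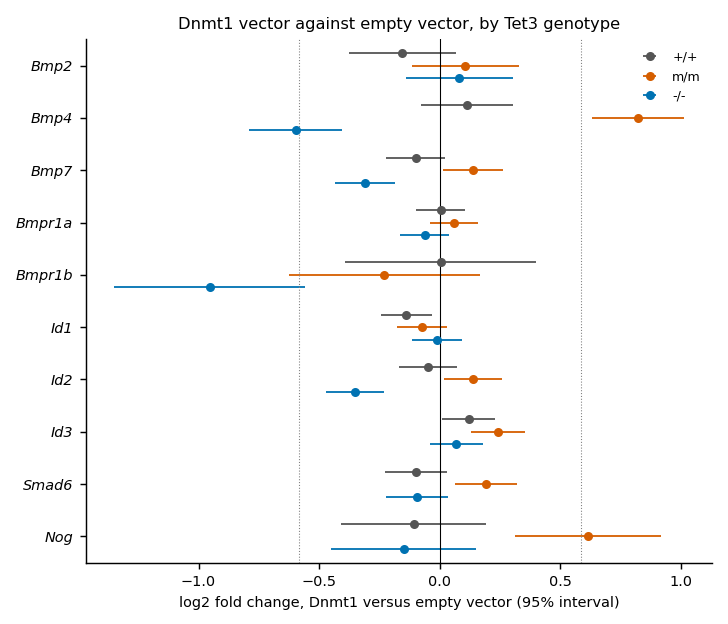
Log2 fold change of each member between the Dnmt1 and the empty vector, by Tet3 genotype; points are limma estimates, bars 95% intervals and dotted lines mark 1.5-fold. Bmp4 is at 0.82 in Tet3m/m and at -0.60 in Tet3-/-, on either side of 0.11 in Tet3+/+.

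Marker sums also moved with the Dnmt1 vector. In Tet3m/m, fibroblast markers went from 2900–3145 to 4614–4704, with 7 of 8 higher without overlap, NE markers from 19006–19348 to 21374–22186, with 4 of 8 higher, and primitive endoderm markers from 173498–195272 to 169190–181865, with 5 of 8 lower. In Tet3-/-, pluripotent cell markers went from 6308–6674 to 8717–8772, with 7 of 8 higher, and surface ectoderm markers from 104689–107847 to 122118–143895, with 2 of 8 higher and 3 lower. The NE marker sum also rose with Dnmt1 in Tet3+/+, from 18757–19152 to 22665–23671. In Tet3-/- it rose from 22065–22523 to 25044–26590, with 2 of 8 higher and 3 lower. The part of these marker shifts in the BMP results was not tested.

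Other pathway genes with the Dnmt1 vector showed 1 call in Tet3+/+, 8 of 61 higher and none lower in Tet3m/m, and 2 higher and 2 lower in Tet3-/-. Of all genes, 1.17%, 2.46% and 3.53% were called, and the single call in Tet3+/+ is near that share. Msx1 and Hey1 moved as Bmp4 did. Msx1 went from 470 to 693–751 in Tet3m/m (log2 change 0.62, limma adjusted p = 1.36e-06) and from 2667–2673 to 1673–1687 in Tet3-/- (-0.67, limma adjusted p = 9.84e-07). Hey1 went from 133–141 to 269–282 (1.00, limma adjusted p = 0.000262) and from 200–220 to 111–130 (-0.80, limma adjusted p = 0.00194). The difference between Tet3-/- and Tet3m/m was -1.28 for Msx1 and -1.80 for Hey1 (limma adjusted p = 6.19e-09 and 1.36e-05). Bmp5, a ligand named after its values were seen, was the call in Tet3+/+ (1.02, limma adjusted p = 0.0344) and went from 5.21–7.31 to 75.4–102 in Tet3m/m (3.63, limma adjusted p = 1.29e-08). Fst rose in Tet3m/m from 517–698 to 1374–1645 (1.32, limma adjusted p = 1.96e-07), and Eng rose in Tet3-/- from 577–585 to 940–1126 (0.82, limma adjusted p = 2.08e-06).

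The Tet3-CD experiment asks what adding the catalytic domain changes in each genotype, with 1 library per genotype and vector. There is no replicate check and no test here, so differences are given as ratios, with those past 1.5-fold counted. In Tet3+/+ and in Tet3m/m, none of the 10 members was past 1.5-fold with Tet3-CD, against 13.4% and 10.1% of all 17481 genes. In Tet3-/-, 2 of the 10 members, Id3 and Smad6, were, which is near the 21.5% of all genes. The Tet3 transcript itself was at 4755 and 5441 in Tet3+/+ for the empty and the Tet3-CD vector, at 1850 and 5232 in Tet3m/m, and at 2070 and 2759 in Tet3-/-.

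**Figure D5:**
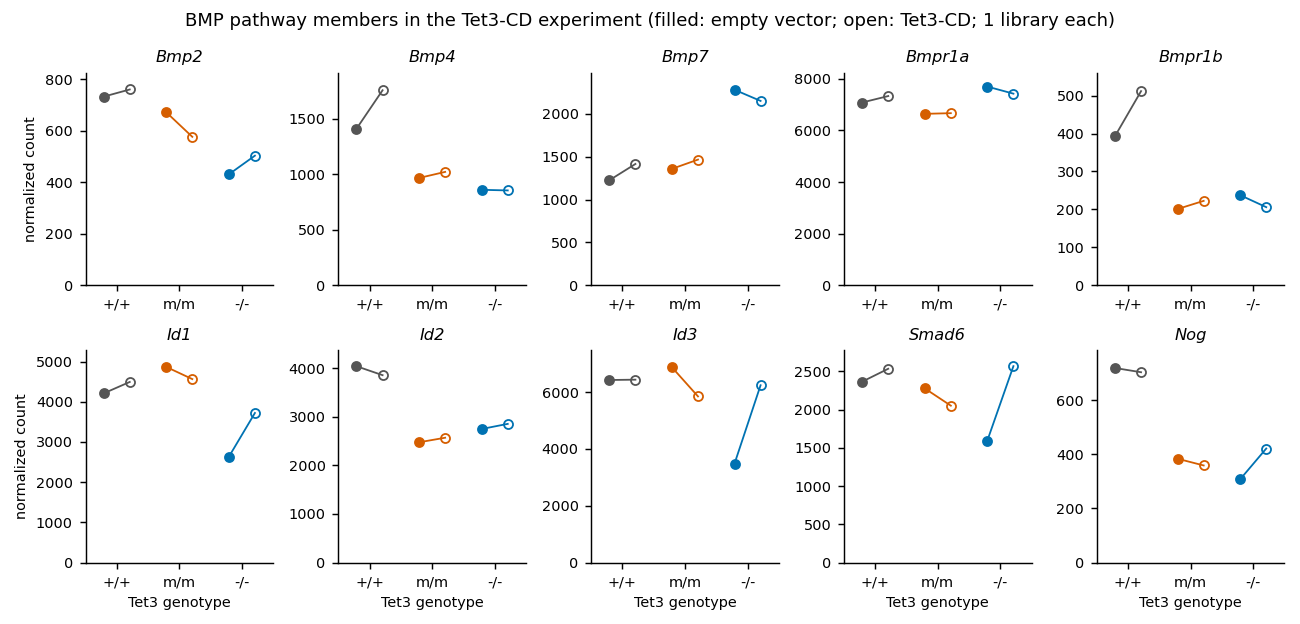
Normalized counts of the members in the Tet3-CD experiment, with a panel for each gene; filled points are the empty-vector library of a genotype, open points the Tet3-CD library and lines join them, with 1 library each. Id3 went from 3479 to 6240 in Tet3-/- and Smad6 from 1595 to 2569.

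Id3 was at 3479 in the empty-vector library of Tet3-/- and at 6240 in the Tet3-CD library, a 1.79-fold ratio. The other genotypes had 6425 and 6437 (Tet3+/+) and 6874 and 5848 (Tet3m/m). Smad6 went from 1595 to 2569 in Tet3-/-, 1.61-fold, next to 2366 and 2535 in Tet3+/+ and 2278 and 2052 in Tet3m/m. For both genes, the Tet3-/- library with the empty vector was the lowest of the 6, and the Tet3-/- library with Tet3-CD was not.

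Id1 was at 4208 and 4492 in Tet3+/+, at 4866 and 4563 in Tet3m/m, and went from 2629 to 3720 in Tet3-/-, 1.41-fold. Nog was at 719.0 and 703.3, at 383.6 and 358.8, and went from 307.7 to 421.4, 1.37-fold. Bmp4 and Id2, by contrast, were nearly level in Tet3-/-, at 859.0 and 853.3 and at 2750 and 2855. Bmp4 was at 1408 and 1754 in Tet3+/+ and at 965.4 and 1020 in Tet3m/m. The ratios of the remaining members with Tet3-CD lay between 0.858 and 1.30 in all genotypes.

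Between genotypes with this empty vector, 3 members were past 1.5-fold in Tet3m/m, against 36.3% of all genes: Bmpr1b (201.1 against 393.1), Id2 (2476 against 4042) and Nog (383.6 against 719.0), each lower. In Tet3-/-, 7 were, against 27.1%. Bmp2 (431.0 against 732.8), Bmp4, Bmpr1b (237.6 against 393.1), Id1, Id3 and Nog were lower and Bmp7 (2280 against 1225) was higher. Marker levels differed between these libraries. Primitive endoderm markers summed to 249784 in Tet3+/+, 43265 in Tet3m/m and 55287 in Tet3-/- with the empty vector, and to 24334 in Tet3-/- with Tet3-CD, where 7 of 8 were lower. NE markers in Tet3-/- summed to 11899 without and 19019 with Tet3-CD, with 3 of 8 higher and 5 lower. Of all markers in this experiment, only Lum was listed at 0, in Tet3m/m and Tet3-/- with Tet3-CD, and the part of these shifts in the ratios was not tested.

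Likeness of pattern was measured as the root mean square difference of centred log2 levels over the 20 day 3 and Dnmt1 samples, among 17244 genes tested in both. The genes most like Bmp4 were Gas1, which encodes a membrane-anchored Hedgehog binding protein (0.145), the ephrin receptor Epha7 (0.199) and the zinc finger gene Zfp503 (0.218). For Nog they were the ephrin Efnb2 and the heparan sulfate sulfatase Sulf1 (both 0.205) and Arl4c (0.23). For Bmpr1b they were Rnf150 (0.284), Metrn and Gdf11 (both 0.294), the last a ligand of the other pathway list. The samples share experiments and genotypes, and these likenesses are a description with no test.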

How the data were processed

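RNA-seq was analysed in 26 samples. Per the study's methods, the authors trimmed reads (Trim Galore 0.6.7), aligned them (STAR 2.7.9a), took gene counts from featureCounts and scaled them by DESeq2 size factors in each experiment. The deposited values are these normalized counts, treated as a signal. Of the values checked, which leave out large counts, 100% gave whole reads (tolerance 0.01). Recovered reads lay between 36594650 and 47710548 per day 3 sample, 31155842 and 50845950 per Dnmt1 sample and 33475041 and 37707719 per Tet3-CD sample. The labels and methods name different genome builds, and whether counting used strand is not given in the sources used here, so reads of overlapping or antisense genes cannot be told apart.

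Log2 of the deposited value plus 1 was tested with limma 3.58.1 (R 4.3.3, lmFit, eBayes with a trend), with all groups of an experiment in 1 fit, for genes with a mean of at least 10, and p-values were adjusted by Benjamini-Hochberg over all genes tested. Fold changes on this scale understate changes of low genes. Alternatives were edgeR 4.0.16 and DESeq2 1.42.0 on the recovered reads, other pseudocounts and filters, rescaling, the compared groups alone, a replicate block and leaving out each library. Scripts were tested on simulated data. The Tet3-CD samples, 1 per group, gave ratios only.

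Members, marker lists and pathway lists were chosen with earlier results of these data known. Other pathway genes were named if called in a day 3 comparison, at most 4 per role with the largest change. Bmp5 and Fstl1 were named outside this rule, after their values were seen. DNA methylation and hydroxymethylation samples were not analysed here.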

Additional observations from a re-analysis of the deposited data

Results flagged for a closer look

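The effect of the Dnmt1 vector differed between genotypes, by the test of the difference itself, for 6 members. For Bmp4, the ligand, the log2 change in Tet3m/m exceeded that in Tet3+/+ by 0.71, that in Tet3-/- was below that in Tet3+/+ by a difference of -0.71, and Tet3-/- against Tet3m/m gave -1.42. Against Tet3+/+, Tet3-/- also differed for the receptor Bmpr1b, at -0.96, and for the target Id2, at -0.30. Against Tet3m/m, Tet3-/- differed for Bmp7 at -0.45, Id2 at -0.49, Smad6 at -0.29 and Nog at -0.76, in a test added after the data had been seen. Of 12 fits without a library, calls against Tet3+/+ were lost in 5 for Bmpr1b and 4 for Id2. Those against Tet3m/m were lost in 6 for Smad6 and 3 for Nog. With the vector, the Dnmt1 transcript was at 33380 and 39854 in Tet3-/-. It was at 22799 and 23768 in Tet3+/+ and at 20245 and 23211 in Tet3m/m. The part of this amount in the differences was not tested.

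For 3 members, values lay on opposite sides of Tet3+/+ in the day 3 and the empty-vector samples, with all mutant samples on one side in each experiment. Id1 in Tet3m/m had log2 changes of 0.13 on day 3 and -0.98 with the empty vector. Bmp4 in Tet3-/- had -0.65 and 0.34, and Bmpr1b in Tet3-/- had -0.49 and 1.53. The difference between the experiments was not tested.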

How the results depend on the processing

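Counts of members called with the empty vector were 8, 2 and 8 for Tet3m/m, Tet3-/- and Tet3-/- against Tet3m/m in every fit without a library, and 0 stayed the count for Dnmt1 in Tet3+/+. Samples of a group in the Dnmt1 experiment may be technical replicates, so these fits do not show the spread between clones or cultures. Without a fold threshold the counts went from 3 to 6 for Tet3m/m on day 3, from 0 to 1 for Tet3-/- on day 3, from 2 to 7 for Tet3-/- with the empty vector and from 2 to 4 for Dnmt1 in Tet3-/-. DESeq2 called 1 member in Tet3-/- on day 3 in place of 0, 2 between the mutants in place of 1 and 2 for the difference of Dnmt1 effects between Tet3m/m and Tet3+/+ in place of 1. It also called 11 other pathway genes in Tet3-/- in place of 4, and 15 between the mutants in place of 9. With only the compared groups in the fit, the count was 1 for Tet3-/- on day 3 and 1 for Dnmt1 in Tet3m/m. The cause of these differences was not tested, beyond the threshold or the fewer samples that define the setting.

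Without single libraries, the counts ranged from 2 to 3 (Tet3m/m, day 3), 0 to 1 (Tet3-/-, day 3), 0 to 2 (between the mutants, day 3), 1 to 2 (Dnmt1 in Tet3m/m), 1 to 2 (Dnmt1 in Tet3-/-), and, for differences of Dnmt1 effects, 1 to 2 (Tet3m/m minus Tet3+/+), 1 to 3 (Tet3-/- minus Tet3+/+) and 3 to 6 (Tet3-/- minus Tet3m/m). A lone sample of a group was then assumed to vary like the others. Signs turned in 33 member values of 16 results, all of which had a reported log2 value within 0.231 of 0. With the replicate block these were Bmpr1a in Tet3-/- on day 3 (6e-04) and Bmp4 between the mutants on day 3 (0.0298), and with edgeR Bmpr1a for Dnmt1 in Tet3+/+ (-0.0018). Without single libraries, day 3 ranges were -0.0945 to 0.0818 for Smad6 in Tet3m/m, -0.0886 to 0.0694 for Bmpr1a in Tet3-/-, and -0.20 to 0.22 for Id3 and -0.19 to 0.10 for Bmp4 between the mutants. With the empty vector they were -0.0442 to 0.19 for Bmp2 in Tet3m/m and -0.0347 to 0.0473 for Id3 in Tet3-/-. For Dnmt1 they were -0.27 to 0.0515 for Nog, -0.0345 to 0.0412 for Bmpr1a and -0.12 to 0.12 for Bmpr1b in Tet3+/+, -0.0135 to 0.23 for Bmp2 and -0.46 to 0.0031 for Bmpr1b in Tet3m/m, and -0.0789 to 0.055 for Id1 in Tet3-/-. Differences of Dnmt1 effects ranged from -0.0556 to 0.0642 for Smad6 and -0.20 to 0.12 for Nog (Tet3-/- minus Tet3+/+), and from -0.14 to 0.0948 for Bmp2 and -0.0056 to 0.13 for Id1 (Tet3-/- minus Tet3m/m).

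Samples share replicate numbers only: on day 3, deviations of same-numbered samples correlated at -0.098 to 0.082. With the replicate block the counts of members called were 3, 0 and 1 on day 3, 8 between the mutants with the empty vector, 2 for Dnmt1 in each mutant and 5 for the added test, as without it, and over all genes it moved 1836 calls to 1893 in Tet3m/m on day 3 and 638 to 560 for Dnmt1 in Tet3-/-. No block could be fitted where the empty-vector Tet3+/+ samples, which carry no number, enter. The lowest member value in the tested experiments was 66.15 normalized counts, and no group had more than 3 samples.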

Other observations

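With 1 library per group and no test, some other BMP pathway genes also differed between vectors in Tet3-/- of the Tet3-CD experiment. Of all genes, 21.5% were past 1.5-fold there, and the genes given here are picked examples without a count over the list. Eng, the co-receptor, was at 456 in the empty-vector library and at 895 in the Tet3-CD library. Fst, which binds activins and some BMPs, was at 1210 and 615, and the repressor Hey1 at 168 and 99.2. Msx1, the homeobox target, was at 785 and 851. Fstl1 was at 9553 and 21010 and Crim1 at 3386 and 6483. Lower with Tet3-CD were Chrdl2, at 291 and 100, Sostdc1, at 50.1 and 9.45, and Gdf10, at 111 and 52.9. Fst was at 6757 and 5790 in the same libraries of Tet3+/+ and at 1568 and 1565 in those of Tet3m/m.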
